A study of Mus musculus with 16 samples.

Results

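Of 24562 genes in the count table, 34 that mark white and brown fat were followed through whole mouse aortas, with sorted B1b cells as the contrast. The members were chosen by symbol, among genes proposed with earlier results of these data known, and each was read from its transcript row of highest total count. All 34 were found. RNA sequencing covered 16 libraries on the ApoE-/- strain, whose loss of apolipoprotein E makes mice prone to atherosclerosis. The groups were 5 aortas labelled wt, 5 aortas labelled cre, 3 wt libraries of peritoneal B1b cells and 3 cre libraries of B1b cells, and the series describes the cre animals as lacking the receptor CD40 in B cells alone. All groups thus shared the ApoE-/- background, and "cre" below means the label. The Cre driver, the age of the mice and whether each library came from a separate animal are not stated in the labels, so each p-value reflects differences among the libraries, some of which may be technical.

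The targeted gene, Cd40, was measured at 36.8 ± 2.70 CPM (counts scaled to library size by TMM; SD, n = 3) in wild-type B1b cells and at 32.8 ± 4.64 CPM (n = 3) in cre B1b cells, with overlapping groups, so the transcript level does not separate the labels. In aortas Cd40 ran from 4.76 to 12 CPM in wild type and from 1.85 to 8.51 CPM in cre. Smooth muscle markers, 8 genes in sum, stood at 13044 to 18170 CPM in wild-type aortas, at 8886 to 23054 CPM in cre aortas and at 13.6 to 21.1 CPM in B1b cells, so the aortas carried the markers of their label. After 1 transcript was kept per gene the aortas held 1645926 to 7300894 counts and the B1b libraries 6815829 to 9911226. The shallowest aortas were cre aorta 2 and wild-type aorta 5, at 1645926 and 1979777 counts.

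White adipocytes store triglyceride in 1 large lipid droplet and release hormones such as adiponectin and leptin. Brown adipocytes keep many small droplets and many mitochondria, and burn fat for heat through the uncoupling protein UCP1. The thoracic aorta of the mouse is wrapped in perivascular fat that resembles brown fat. In bulk tissue, fewer fat cells and less fat RNA per cell cannot be told apart.

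Stretches of 250 bases upstream of the start are shown for 3 members that stand for the groups described below, the adipokine gene Adipoq, the thermogenic gene Ucp1 and the lipid synthesis gene Fasn. They were read from RefSeq on GRCm38.p6, 5′ to 3′ on the strand of the gene, at chr16:23146286-23146535 (plus strand), chr8:83290098-83290347 (plus strand) and chr11:120824548-120824797 (minus strand). Capitals mark the letters CCAAT of the CCAAT box, the letters AGGTCA read by many nuclear receptors, and the letters TATAAA of the TATA box, on either strand. The first of these reads ATTGG on the strand shown if it lies on the opposite one.
Adipoq: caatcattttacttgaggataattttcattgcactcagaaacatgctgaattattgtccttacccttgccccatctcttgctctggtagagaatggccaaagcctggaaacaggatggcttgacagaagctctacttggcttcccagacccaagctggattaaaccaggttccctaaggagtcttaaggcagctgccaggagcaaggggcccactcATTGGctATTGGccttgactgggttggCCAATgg
Ucp1: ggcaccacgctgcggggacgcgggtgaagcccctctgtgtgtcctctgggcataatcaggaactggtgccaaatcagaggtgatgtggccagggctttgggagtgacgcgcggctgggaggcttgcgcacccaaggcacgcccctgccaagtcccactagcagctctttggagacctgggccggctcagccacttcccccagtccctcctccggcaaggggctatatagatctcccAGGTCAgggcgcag
Fasn: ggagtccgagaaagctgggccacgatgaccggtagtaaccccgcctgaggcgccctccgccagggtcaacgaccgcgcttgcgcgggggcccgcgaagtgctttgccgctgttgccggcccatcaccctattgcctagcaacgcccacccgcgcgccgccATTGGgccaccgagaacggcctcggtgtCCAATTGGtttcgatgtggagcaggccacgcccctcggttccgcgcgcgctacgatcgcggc
In Adipoq the CCAAT letters began 7 bases before the start, and on the opposite strand 27 and 34 bases before it. Ucp1 held AGGTCA 14 bases before the start. Fasn held CCAAT 62 bases before the start and on the opposite strand 59 and 90 bases before it, and the copies at 62 and 59 bases overlap. Promoters were found for 23 of the 34 members, 29 promoters in all. CCAAT lay in 10 of these 29 upstream stretches (34.5%), against 33.8% of all 32851 promoters. AGGTCA lay in 7 (24.1%), against 14% of all, and TATAAA in 2 (6.9%), against 12.4% of all. A match is only a description of these letters.

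For most fat genes, 3 aortas stood apart from the other 7, 1 of them wild type and 2 of them cre. Counts of the 34 members made up 0.547%, 0.697%, 0.906%, 0.799% and 2.52% of the counts in wild-type aortas 1 to 5. They made up 1.03%, 0.801%, 2.42%, 2.92% and 0.946% in cre aortas 1 to 5. In B1b cells the share lay between 0.233% and 0.255%. Wild-type aorta 5 and cre aortas 3 and 4 held the 3 highest values of 26 of the 34 members, where the same 3 libraries held the 3 highest values of 669 of 13364 genes tested in aortas (5.01%). The 8 exceptions were Lep, Plin2, Plin4, Fabp5, Cox7a1, Dio2, Lpl and Prdm16. The members were chosen with this pattern known, so it is a description. No sample was left out of the main comparisons for it. Counts of members called are given with and without the 3 libraries, and fold changes of single genes without them only for some members.

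**Figure D1:**
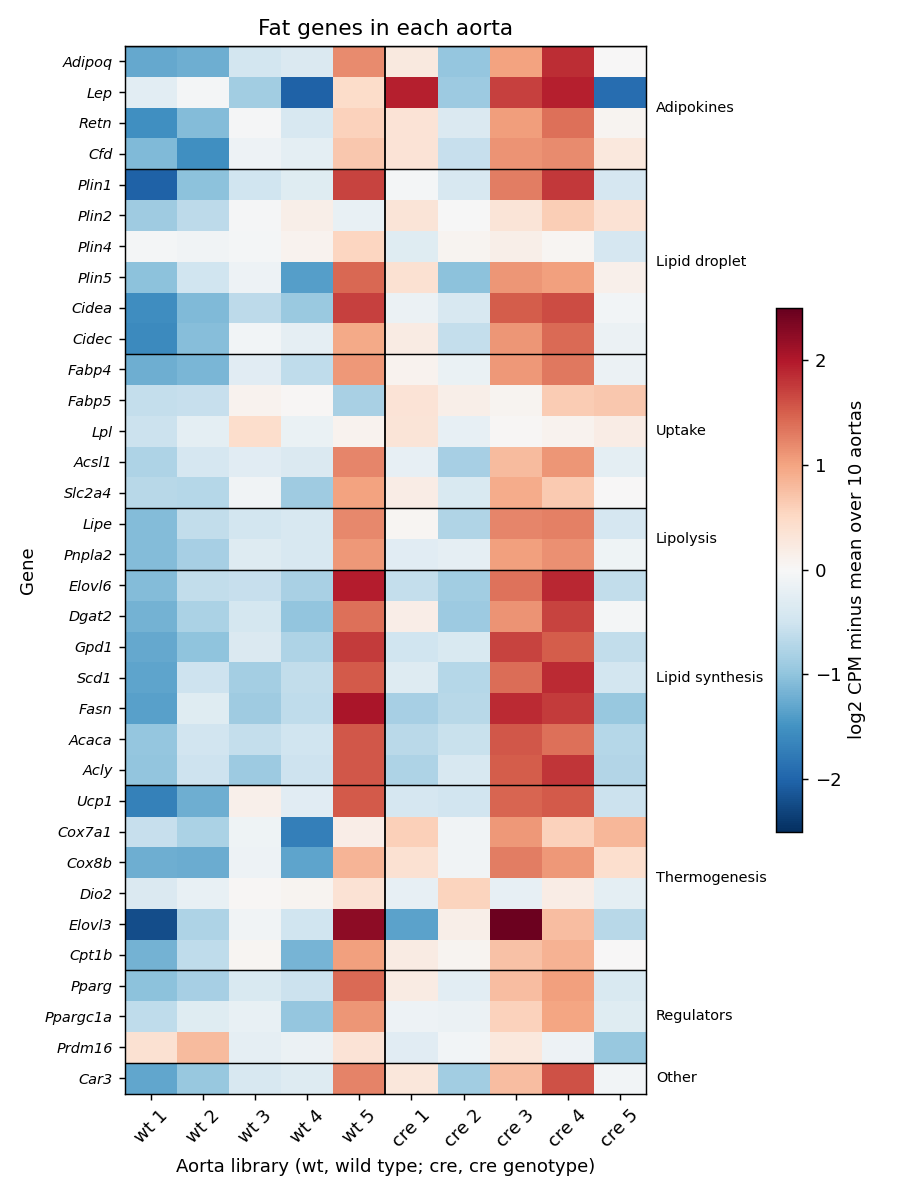
Level of each of the 34 fat genes in the 10 aortas, as log2 CPM minus the mean of that gene over all 10, with genes in rows grouped by role and libraries in columns (wt, wild type). Wild-type aorta 5 and cre aortas 3 and 4 are red in most rows, while Plin2, Plin4, Fabp5, Lpl, Dio2 and Prdm16 do not follow them.

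The fat genes varied more between aortas of 1 genotype than most genes did. The median SD of log2 CPM within a genotype was 0.828 for the 33 members other than Lep and 0.314 for the 12152 genes with a mean of at least 5 CPM, and 31 of the 33 lay above that second value. Between cre and wild-type aortas, edgeR's quasi-likelihood test called 0 of the 33 members tested at a Benjamini-Hochberg adjusted p under 0.05, against 0.015% of all 13364 genes. An unadjusted p under 0.05 was reached by 5 members, Cox7a1, Fabp5, Plin2, Retn and Cox8b, against 12.6% of all genes. On the log2 scale, cre minus wild type, 31 of the 33 were above 0 and Plin4 and Prdm16 were below 0. The median was 0.57, where the median of all genes was 0.00 and 50.2% of genes were above 0. Members share the same libraries, so their signs are not separate observations. The groups overlapped for all 34 members, so 0 were separate, against 2.92% of all genes. The call depended on the tool. Limma-voom called 0 members, with 11 at an unadjusted p under 0.05, against 13.8% of all genes, and with quality weights it called 0, with 17 against 15.1%. DESeq2 called 2 members, Cox7a1 and Fabp5 (adjusted p = 0.024 and 0.0429), against 1.53% of all genes. Without wild-type aorta 5, the edgeR test called 0 members, but 22 had an unadjusted p under 0.05, against 13.2% of all genes, and the median log2 fold change was 1.23. With cre aorta 4 left out the median was 0.29, and with cre aorta 3 left out it was 0.36. The number at an unadjusted p under 0.05 was 3 without cre aorta 4, without wild-type aorta 1 or without wild-type aorta 2. Over all genes these fits gave 1511 of 13462, 1396 of 13585 and 1100 of 13501, in that order. The aortas under 2000000 counts were wild-type aorta 5 again and cre aorta 2. Without both, 1 member was called, Cox7a1, against 0.671% of all genes, 27 had an unadjusted p under 0.05, against 16% of all genes, and the median was 1.40. Without the 3 aortas that stood apart, 0 were called and 13 had an unadjusted p under 0.05, against 10.3% of all genes. The median was then 0.47.

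**Figure D2:**
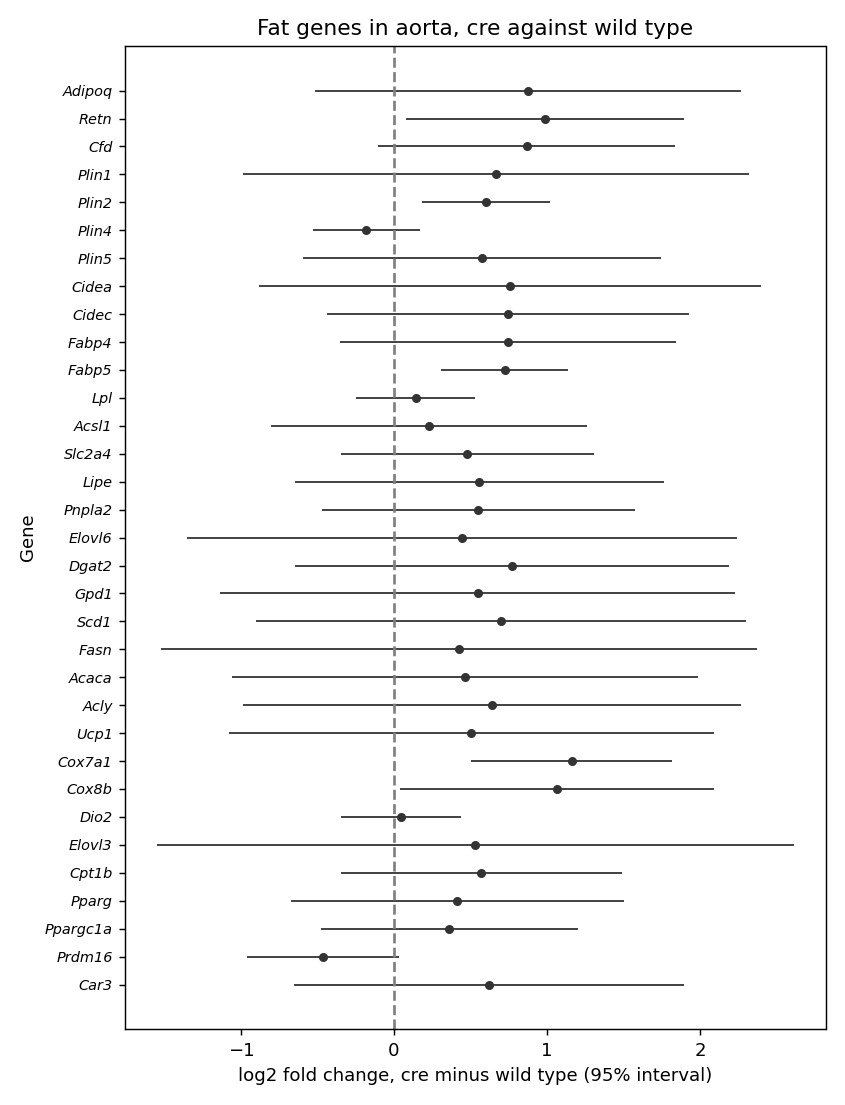
Log2 fold change, cre minus wild-type aorta, of the 33 fat genes tested, with 95% intervals from edgeR, in the order of the groups by role. Points lie above 0 except for Plin4 and Prdm16, and the intervals of Fabp5, Plin2, Cox7a1, Cox8b and Retn leave out 0 before adjustment.

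The adipokines are the hormones and secreted proteins of fat cells. Adiponectin, Adipoq, stood at 55.2, 57.5, 98.0, 106 and 305 CPM in wild-type aortas 1 to 5 and at 161, 69.1, 271, 482 and 136 CPM in cre aortas 1 to 5. The highest values lay in cre aorta 4, wild-type aorta 5 and cre aorta 3, and the groups overlapped. Its log2 fold change was 0.88 ± 0.62 (SE; adjusted p = 0.587, edgeR). Resistin, Retn, a secreted protein of mouse fat, stood at 11.3, 15.4, 32, 24.5 and 48.7 CPM in wild type and at 41.1, 25.3, 66.9, 84.2 and 34.2 CPM in cre. The cre aortas 3 and 4 were above every wild-type aorta, and the other 3 cre aortas lay within the wild-type range. Its log2 fold change was 0.99 ± 0.41 (adjusted p = 0.358, edgeR). Adipsin, Cfd, complement factor D, stood at 249, 185, 491, 451 and 858 CPM in wild type and at 680, 360, 1171, 1208 and 644 CPM in cre. Here too cre aortas 3 and 4 were highest, and the log2 fold change was 0.87 ± 0.44 (adjusted p = 0.444, edgeR).

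Leptin, Lep, the satiety hormone, was near the limit of what these libraries can count. It stood at 0.96, 1.12, 0.64, 0.28 and 1.59 CPM in wild type and at 4.43, 0.62, 3.79, 4.46 and 0.31 CPM in cre. The cre aortas 1, 3 and 4 were highest and the groups overlapped. Lep did not pass the filter on low counts in aortas. With no filter its log2 fold change was 1.69 (adjusted p = 0.41, edgeR), above the 1.15 of Cox7a1 in that fit. It was the least abundant member per kb of transcript, at 0.28 CPM per kb in wild-type aortas. Fabp4, the fatty acid carrier of fat cells, headed the same order at 933 CPM per kb, ahead of Scd1 at 549 and Cfd at 485 CPM per kb.

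Among genes of the lipid droplet, Plin1 coats the droplet of fat cells and Plin2 coats droplets in many cell types, foam cells among them. Plin1 stood at 17, 34, 49.0, 56.1 and 223 CPM in wild-type aortas and at 67.5, 52.4, 169, 237 and 52.3 CPM in cre aortas. The 3 libraries that stood apart were clear of the rest. Its log2 fold change was 0.67 ± 0.73 (adjusted p = 0.734, edgeR). Plin2 did not follow them, at 192, 226, 350, 392 and 314 CPM in wild type and at 441, 353, 441, 547 and 454 CPM in cre. Of the cre aortas, 4 lay above every wild-type aorta and cre aorta 2 did not. The mean was 295 ± 83.9 CPM (SD, n = 5) in wild type and 447 ± 68.7 CPM (n = 5) in cre, and the log2 fold change was 0.60 ± 0.19 (adjusted p = 0.258, edgeR). Plin4, a perilipin of white fat and muscle, ran from 274 to 426 CPM in wild type and from 217 to 326 CPM in cre, with a log2 fold change of -0.18 ± 0.16.

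Cidea, a droplet protein typical of brown fat, stood at 32.6, 44.3, 60.1, 50.4 and 310 CPM in wild-type aortas and at 86.2, 72.1, 270, 296 and 90.8 CPM in cre aortas. Wild-type aorta 5 held more than every cre aorta, and the other 4 wild-type aortas lay below every cre aorta. The log2 fold change was 0.76 ± 0.73 (adjusted p = 0.691, edgeR). Cidec, which enlarges droplets, ran from 38.2 to 223 CPM in wild type and from 76.5 to 307 CPM in cre. Plin5, which links droplets to mitochondria, ran from 6.24 to 43.9 CPM and from 8.02 to 34.6 CPM.

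A group of members serves the entry of fuel into the cell. Fabp4 stood at 404, 427, 765, 605 and 1982 CPM in wild type and at 997, 832, 1989, 2344 and 847 CPM in cre, so that each cre aorta was above wild-type aortas 1 to 4. Its log2 fold change was 0.75 ± 0.49 (adjusted p = 0.559, edgeR). Its relative Fabp5, a carrier found in macrophages and endothelium too, stood at 48.7, 49.7, 77.9, 74.9 and 41.8 CPM in wild type and at 93.6, 82.0, 77.8, 115 and 117 CPM in cre. Wild-type aorta 5, among the highest for most members, was the lowest of all for Fabp5. The mean was 58.6 ± 16.6 CPM (SD, n = 5) in wild type and 97.2 ± 18.4 CPM (n = 5) in cre, and the log2 fold change was 0.72 ± 0.19 (adjusted p = 0.198, edgeR). Fabp5 has near-identical copies in the genome, and how the authors' counting shared reads between them is not given in the sources used here.

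Lpl, the lipase that frees fatty acids from lipoproteins, ran from 892 to 1760 CPM in wild-type aortas and from 1120 to 1615 CPM in cre aortas, a log2 fold change of 0.14 ± 0.18. Acsl1, which activates fatty acids, ran from 205 to 818 CPM and from 197 to 751 CPM, and its log2 fold change of 0.23 ± 0.47 turned to -0.06 without cre aorta 4. Slc2a4, the insulin-responsive glucose carrier, ran from 35.8 to 133 CPM and from 51.2 to 126 CPM. The lipolysis enzymes gave log2 fold changes of 0.56 ± 0.54 for Lipe, hormone-sensitive lipase, and 0.55 ± 0.46 for Pnpla2, the first triglyceride lipase.

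**Figure D3:**
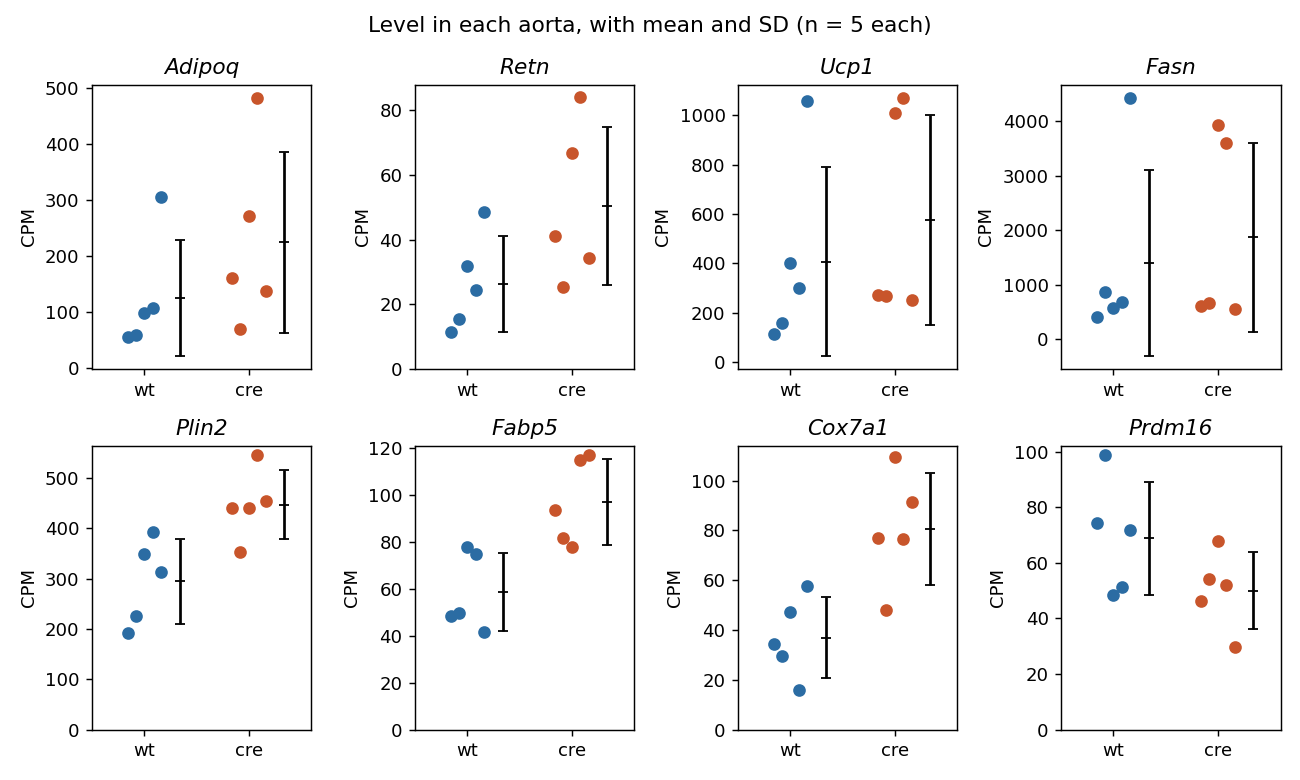
CPM of 8 fat genes in each aorta by genotype (points are single libraries; the bar is mean and SD, n = 5 each; axes linear). Fasn shows 3 libraries far above the other 7, in both genotypes, while Plin2, Fabp5 and Cox7a1 show most cre aortas above most wild-type aortas.

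For the lipid synthesis genes the 3 libraries lay far above the other 7. Fasn, fatty acid synthase, stood at 419, 874, 576, 694 and 4422 CPM in wild-type aortas 1 to 5 and at 604, 660, 3933, 3596 and 554 CPM in cre aortas 1 to 5. Nothing lay between 874 and 3596 CPM. The log2 fold change was 0.42 ± 0.86 (adjusted p = 0.863, edgeR), and it was -0.05 without cre aorta 3 and -0.08 without the 3 libraries. Scd1, the desaturase that makes oleic acid, stood at 1026, 1786, 1412, 1662 and 7387 CPM in wild type and at 2051, 1552, 6747, 9319 and 1848 CPM in cre, with the same 3 libraries highest. Scd1 alone made up 16% to 32.4% of the members' counts in an aorta.

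The other synthesis genes repeated this split. Acaca, which makes malonyl-CoA, ran from 50.2 to 70.7 CPM in the other 7 aortas and from 254 to 289 CPM in the 3. Its log2 fold change of 0.46 ± 0.68 was -0.04 without them. Acly, which makes acetyl-CoA from citrate, was at most 189 CPM in the 7 and was at least 715 CPM in the 3. Gpd1, which makes glycerol 3-phosphate, was at most 375 CPM in the 7 and at least 1369 CPM in the 3. Elovl6, an elongase, was at most 41.5 CPM in the 7 and at least 158 CPM in the 3, and its log2 fold change of 0.45 ± 0.80 was -0.10 without cre aorta 4. Dgat2, which makes triglyceride, ran from 38.4 to 226 CPM in wild type and from 46.2 to 281 CPM in cre, with a log2 fold change of 0.77 ± 0.63.

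Thermogenic genes serve heat production in brown fat. Ucp1, the uncoupling protein of brown fat, stood at 114, 158, 401, 301 and 1059 CPM in wild-type aortas and at 273, 266, 1009, 1070 and 253 CPM in cre aortas. The same 3 libraries were highest and the groups overlapped, with a log2 fold change of 0.51 ± 0.70 (adjusted p = 0.797, edgeR). Without these 3 libraries the log2 fold change of Ucp1 was 0.11. Cox8b, a subunit of the respiratory chain in brown fat and striated muscle, stood at 40.1, 39.6, 85.2, 37.3 and 169 CPM in wild type and at 122, 87.6, 226, 197 and 126 CPM in cre. Every cre aorta lay above wild-type aortas 1 to 4, and the log2 fold change was 1.06 ± 0.46 (adjusted p = 0.381, edgeR). Cox7a1, another subunit of brown fat and striated muscle, stood at 34.6, 29.5, 47.2, 15.8 and 57.7 CPM in wild type and at 77.1, 48.1, 109, 76.6 and 91.6 CPM in cre. Of the cre aortas, 4 were above every wild-type aorta.

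Cox7a1 had the largest log2 fold change of the 33 members tested, 1.16 ± 0.30 (adjusted p = 0.198, edgeR), from 36.9 ± 16.2 CPM (SD, n = 5) to 80.5 ± 22.5 CPM (n = 5). Without both aortas under 2000000 counts its log2 fold change was 1.47 (adjusted p = 0.0499, edgeR). Elovl3, an elongase of brown fat, ran from 2.16 to 47.1 CPM in wild type and from 3.94 to 54.8 CPM in cre, and its log2 fold change of 0.53 ± 0.93 was -0.46 without cre aorta 3. Cpt1b, the gate of fatty acids into mitochondria of muscle and brown fat, ran from 45.6 to 211 CPM and from 105 to 189 CPM. Dio2, the deiodinase that activates thyroid hormone, ran from 165 to 272 CPM and from 177 to 312 CPM, and its log2 fold change of 0.05 ± 0.18 was -0.12 without cre aorta 2.

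The regulators include Pparg, the master factor of fat cell formation, at 15.6, 17.9, 24.3, 21.9 and 85.2 CPM in wild-type aortas and at 36.7, 26.5, 54.5, 64.9 and 24.4 CPM in cre aortas. Wild-type aorta 5 was the highest of all 10, and the log2 fold change was 0.41 ± 0.49 (adjusted p = 0.755, edgeR). Ppargc1a, the coactivator that drives mitochondrial genes, stood at 18.5, 23.0, 25.0, 14.6 and 61.4 CPM in wild type and at 26.1, 25.9, 42.5, 56.7 and 23.0 CPM in cre, with the same 3 libraries highest and a log2 fold change of 0.36 ± 0.38. Prdm16, the factor that sets brown fat identity, had a lower mean in cre, from 48.4 to 98.7 CPM in wild type and from 29.6 to 67.8 CPM in cre, with a log2 fold change of -0.46 ± 0.23 (adjusted p = 0.424, edgeR). Car3, the carbonic anhydrase of fat and slow muscle, stood at 222, 285, 416, 438 and 1304 CPM in wild type and at 672, 302, 940, 1648 and 520 CPM in cre, highest in the 3 libraries again.

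Markers of other tissues were set beside the fat genes, and edgeR called 0 of those described below between cre and wild-type aortas. Of 7 B cell markers tested in aortas, a list not described further, 1 was called, higher in cre, against 0.015% of all genes. All 10 cardiac muscle markers were above 0 on the log2 scale, cre minus wild type, at a median of 1.19, and 5 had an unadjusted p under 0.05. Over all genes tested in aortas, 50.2% were above 0 and 12.6% had an unadjusted p under 0.05. No cardiac marker was at 0 counts in all aortas. Their summed level ran from 710 to 3143 CPM in wild-type aortas and from 844 to 7396 CPM in cre aortas. The atrial light chain Myl7 ran from 27.2 to 47.2 CPM in wild type and from 70.1 to 557 CPM in cre. The 10 skeletal muscle markers summed to 28.5 to 200.2 CPM and 89.4 to 1010 CPM, and 8 of 8 tested were above 0 with a median of 2.88. Of those 8, 5 had an unadjusted p under 0.05. Members also known from muscle are Cox7a1, Cox8b, Cpt1b, Slc2a4, Plin5, Car3 and Ppargc1a, and the part of muscle RNA in their values was not tested beyond the correlations below. The 10 macrophage markers, relevant to Plin2, Fabp4, Fabp5, Lpl, Acsl1 and Pnpla2, summed to 2655 to 6708 CPM in wild type and 4255 to 8102 CPM in cre, with 5 of 10 above 0 and a median of 0.06. The macrophage markers were lowest in wild-type aorta 5. Of those members Fabp5 was lowest there too, while Acsl1 was highest there of all 10 aortas. Fabp4 and Pnpla2 were among their 3 highest there, and Plin2 and Lpl were neither highest nor lowest. The part of macrophage RNA in the result was not tested.

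The 4 mesothelium markers were all above 0, at a median of 1.003, with 3 at an unadjusted p under 0.05, and they summed to 22.8 to 44.3 CPM in wild type and 48.8 to 124 CPM in cre. For this list and the next ones, the shares of all genes were 50.2% above 0 and 12.6% at an unadjusted p under 0.05. The 5 nerve markers were all above 0, at a median of 0.89, with 2 at an unadjusted p under 0.05. Their sum was highest in cre aorta 4, at 336 CPM, and in wild-type aorta 5, at 136 CPM, both among the 3 aortas of high fat genes, while in cre aorta 3 it was 78.7 CPM. Of 7 fibroblast and fat progenitor markers tested, 3 were above 0, with a median of -0.23 and 3 at an unadjusted p under 0.05, and the list of 8 summed to 9853 to 13971 CPM in wild type and 7054 to 11622 CPM in cre. None of these markers was at 0 in all aortas, and their part in the values of the fat genes was not tested.

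**Figure D4:**
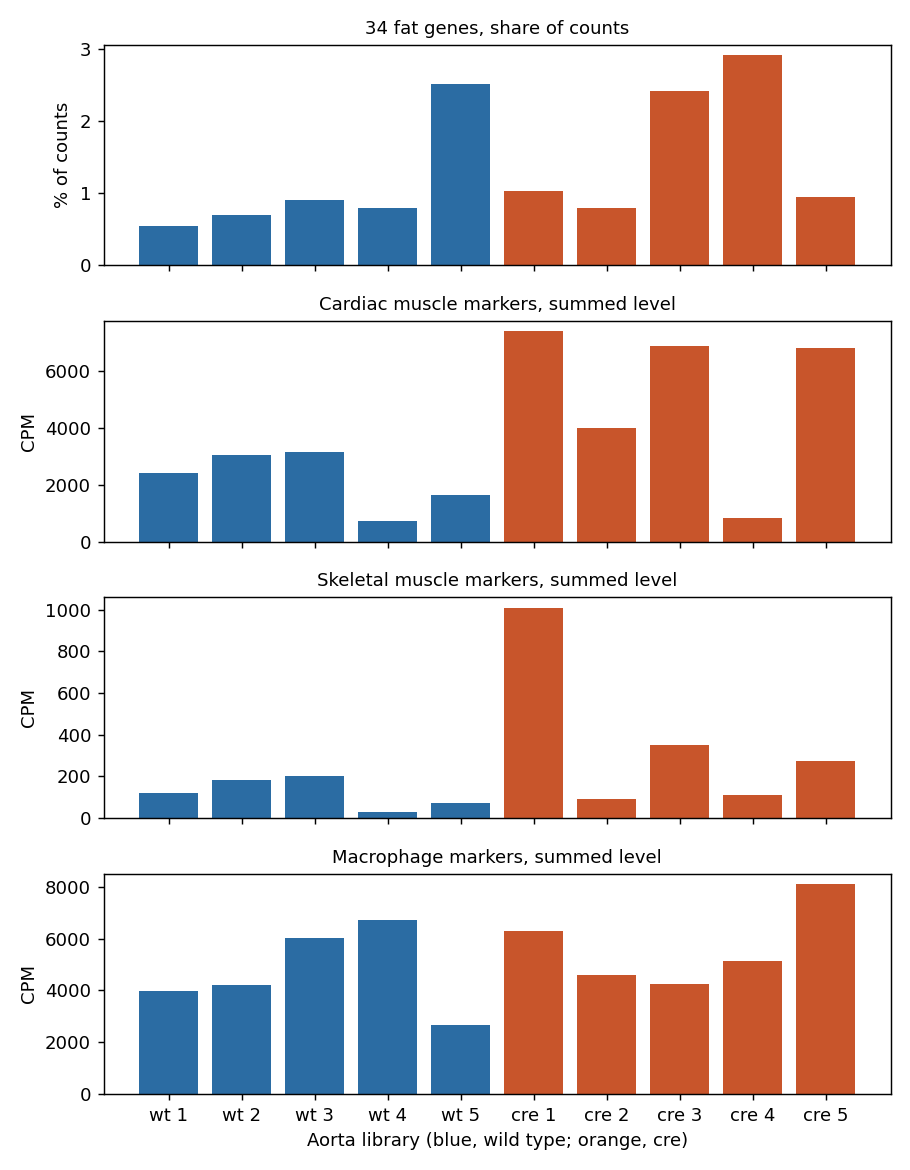
Share of counts taken by the 34 fat genes (top, percent) and summed CPM of the cardiac muscle, skeletal muscle and macrophage markers in each aorta (bars start at 0). The fat share is above 2% in wild-type aorta 5 and cre aortas 3 and 4, cardiac markers are highest in cre aortas 1, 3 and 5, skeletal markers in cre aorta 1, and macrophage markers in cre aorta 5.

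The ratio of Ucp1 to Adipoq was taken within the library of each aorta. On the log2 scale it was 1.04, 1.45, 2.03, 1.51 and 1.79 in wild-type aortas 1 to 5 and 0.77, 1.94, 1.90, 1.15 and 0.89 in cre aortas 1 to 5. The mean was 1.56 ± 0.37 (SD, n = 5) in wild type and 1.33 ± 0.56 (n = 5) in cre. The difference of -0.24 gave p = 0.444 in a two-sided exact permutation test over all splits into 5 and 5, whose smallest possible p is 0.00794. The 3 libraries that stood apart for fat genes had log2 ratios of 1.79, 1.90 and 1.15, inside the range of the others. The ratio compares Ucp1 with Adipoq alone and is not a measure of brown against white fat.

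Relations between members over the aortas were computed for 12 pairs, with Benjamini-Hochberg adjustment over the 12. Where a gap of at least 33.3% of the range split the libraries, a rule chosen after the data were seen, r is given within the larger part only. Over all 10 aortas, Adipoq and Retn gave Pearson r = 0.946 (permutation p = 4e-05, adjusted p = 0.00048) and Spearman rho = 0.952 (permutation p = 0.00014, adjusted p = 0.00168), and r = 0.944 without the 2 aortas farthest from the median of Adipoq. Adipoq and Plin2 gave r = 0.721 (permutation p = 0.0111, adjusted p = 0.0442) and rho = 0.697 (permutation p = 0.0312, adjusted p = 0.0819), and r = 0.828 without the 2 farthest. Adipoq and Plin1, within the 7 aortas left after the 3 were set apart, gave r = 0.778 (exact permutation p = 0.00635, adjusted p = 0.0381) and rho = 0.821 (exact permutation p = 0.0341, adjusted p = 0.0819). On deviations from the genotype means its r was 0.699 and its unadjusted permutation p was above 0.05. Within the same 7, Adipoq and Fabp4 gave r = 0.807 (exact permutation p = 0.0421, adjusted p = 0.107) and rho = 0.857 (exact permutation p = 0.0238, adjusted p = 0.0819). Leptin split the aortas otherwise, and within the 5 wild-type aortas and cre aortas 2 and 5 it gave r = 0.162 with Adipoq (exact permutation p = 0.737, adjusted p = 0.804) and rho = -0.143 (exact permutation p = 0.783, adjusted p = 0.854). With 7 or fewer libraries, r without the 2 farthest is not given.

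Among the brown genes, Ucp1 and Cidea gave, within the 7 aortas, r = 0.665 (exact permutation p = 0.123, adjusted p = 0.185) and rho = 0.357 (p = 0.444 by exact permutation, adjusted p = 0.667), and on deviations from the genotype means r was 0.895 with an unadjusted permutation p under 0.05. Ucp1 and Cox8b, within the 5 cre aortas and wild-type aortas 3 and 5, gave r = 0.818 (exact permutation p = 0.0536, adjusted p = 0.107) and rho = 0.571 (p = 0.2 by exact permutation, adjusted p = 0.343), and on such deviations r was 0.93 with an unadjusted permutation p under 0.05. Ucp1 and Ppargc1a gave r = 0.23 and rho = 0.286, and Ucp1 and Cox7a1 gave r = 0.18 and rho = 0, each with an adjusted p of at least 0.741 by exact permutation. Adipoq and Ucp1 gave r = 0.662 (exact permutation p = 0.108, adjusted p = 0.184) and rho = 0.571 (p = 0.2 by exact permutation, adjusted p = 0.343). Within the 5 wild-type aortas and cre aorta 4, Cox8b gave r = 0.822 with the atrial gene Myl7 (exact permutation p = 0.0528, adjusted p = 0.107) and rho = 0.943 (p = 0.0167 by exact permutation, adjusted p = 0.0819). On deviations from the genotype means r was 0.0113. Cre aorta 4 is the only cre library in this set, and its Myl7 of 70.1 CPM lay below every other cre aorta. That value therefore cannot tell whether the relation holds within a genotype. Car3 and the skeletal actin gene Acta1, over all 10 aortas, gave r = 0.0837 (permutation p = 0.822, adjusted p = 0.822) and rho = -0.103 (permutation p = 0.781, adjusted p = 0.854), and r = 0.407 without the 2 farthest.

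Outside the 34, the genes whose level followed Adipoq most closely over the 10 aortas, among 12119 compared, were Grpel1, Adipor2, Tmem45b, Ces1d, Amy1, Hcar1, Mtarc2 and Mtch2. Their r ran from 0.965 for Mtch2 to 0.987 for Grpel1, and over the 7 aortas that did not stand apart from 0.826 for Mtch2 to 0.961 for Grpel1. Adipor2 is a receptor for adiponectin, and it also ranked among the 8 nearest to Ucp1. Those 8 were Uck1, Cib2, Lpin1, Agpat2, Sephs2, Cdo1, Pck1 and Adipor2, with r from 0.957 for Adipor2 and Pck1 to 0.982 for Uck1, and from 0.837 to 0.936 over the 7. These are descriptions with no test, over genes that share the same 10 libraries.

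Further fat genes outside the members were counted by list. Of 34 white adipocyte genes, 33 were tested in aortas, 0 were called, 9 had an unadjusted p under 0.05 and 30 lay above 0 on the log2 scale, and their median was 0.50. Those shares were 27.3% at an unadjusted p under 0.05 and 90.9% above 0, against 12.6% and 50.2% of all genes, where 0.015% were called. Wild-type aorta 5 and cre aortas 3 and 4 held the 3 highest values of 15 of the 34, against 5.01% of all genes. The list shares these libraries with the members, so it is not a separate observation. Sfrp5, a Wnt antagonist secreted by fat, stood at 7.57 ± 3.32 CPM (SD, n = 5) in wild type and 19.6 ± 8.87 CPM (n = 5) in cre, a log2 fold change of 1.45 ± 0.33 (adjusted p = 0.156, edgeR). Nnat, neuronatin, stood at 2.28 ± 0.875 CPM and 9.92 ± 6.64 CPM, a log2 fold change of 2.05 ± 0.48 (adjusted p = 0.164, edgeR). Cebpa, a factor of fat cell formation, and Angptl4, an inhibitor of LPL, gave log2 fold changes of 0.50 ± 0.17 and 0.58 ± 0.20, with adjusted p = 0.289 and 0.295 by edgeR.

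Of 32 brown adipocyte genes, 27 were tested, 0 were called, 2 had an unadjusted p under 0.05 and 24 were above 0, with a median of 0.45. Those shares were 7.41% and 88.9%, against the same 12.6% and 50.2% of all genes. Wild-type aorta 5 and cre aortas 3 and 4 held the 3 highest values of 20 of the 32, against 5.01% of all genes, so this list is not a separate observation either. The 4 of smallest p were Esrra, Kcnk3, Fabp3 and Acaa2, with log2 fold changes of 0.38, 0.80, 0.94 and 0.80 and adjusted p-values of 0.336, 0.367, 0.428 and 0.43 by edgeR. Of 7 beige symbols listed, 6 were in the count table and 5 were tested. Of these, 0 were called and 2 (40%) were above 0, against 50.2% of all genes, with a median of -0.18. The 4 of smallest p were Ckmt2, Slc6a8, Tmem26 and Tnfrsf9, with log2 fold changes of 1.06, -0.18, -0.24 and -0.38.

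B1b cells held little of most members. Adipoq was counted 10 times in all 3 wild-type B1b libraries, Ucp1 15 times, Fabp4 22 times and Lep 9 times. Cidea, Cox8b, Retn and Pparg were counted once each, Plin1 and Plin5 2 times each, and Elovl3 and Slc2a4 never. Elovl3 also had 0 counts in all cre B1b libraries. Against the limit that 3 counts over the group allow, Slc2a4 was at least 507-fold higher and Elovl3 at least 116-fold higher in wild-type aortas. Without wild-type aorta 5 these limits were 363-fold and 49.3-fold. Some members were well counted there. Among lipid synthesis genes, wild-type B1b cells held Scd1, Acly, Fasn and Acaca at 1619.6, 410.1, 219 and 33.3 CPM, while Gpd1 had 10 counts and Elovl6 stood at 3.14 CPM. Outside them, Pnpla2, Acsl1, Lipe and Plin2 stood at 81.0, 42.3, 39.4 and 15.2 CPM. Scd1 made up 62.6% to 65.0% of the members' counts in a B1b library, and Scd1, Acly and Fasn together made up 88.5% to 90.3%.

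Of the 33 members tested between wild-type aorta and wild-type B1b cells, 31 were higher in aorta at an adjusted p under 0.05 (edgeR), against 40.4% of all 14339 genes. Of those tested, 18 had too few counts to be tested within B1b cells and could pass the filter only through the aorta, so the count is no support. Scaled together, Adipoq stood at 124 ± 104 CPM (SD, n = 5) in wild-type aorta and 0.379 ± 0.452 CPM (n = 3) in B1b cells. Scd1 stood at 2646 CPM in aorta and 1624 CPM in B1b cells, a log2 fold change of 0.70 ± 0.63 (adjusted p = 0.332, edgeR), which was -0.15 without wild-type aorta 5 (adjusted p = 0.432). Acly stood at 267 CPM in aorta and 411 CPM in B1b cells, -0.64 ± 0.59 (adjusted p = 0.349, edgeR). Without wild-type aorta 5 the difference of Acly was -1.44 (adjusted p = 4.39e-07, edgeR), called lower in aorta, and between cre aortas and cre B1b cells it was 0.03. Among members counted in both, Lpl differed by 7.46 ± 0.54, Plin2 by 4.26 ± 0.27, Acsl1 by 3.10 ± 0.48, Fasn by 2.66 ± 0.88 and Acaca by 1.65 ± 0.62 on the log2 scale. Without wild-type aorta 5 the difference was 1.53 for Fasn and 0.92 for Acaca, both still called. Tissue, sorting and storage differ together with this comparison and cannot be told apart.

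**Figure D5:**
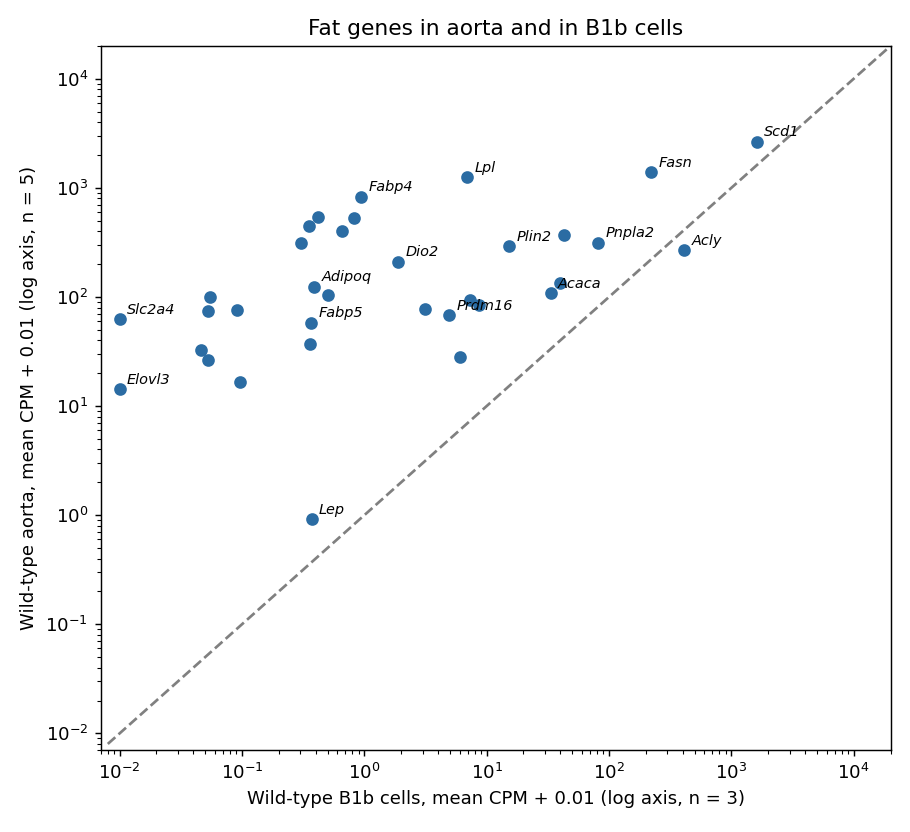
Mean CPM plus 0.01 of the 34 fat genes in wild-type aorta (n = 5) against wild-type B1b cells (n = 3), scaled together, on log axes, with a dashed line of equal level. Scd1 and Acly lie near the line, Slc2a4 and Elovl3 sit at 0 counts in B1b cells, and Lep is the lowest in aorta.

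Between cre and wild-type B1b cells, 15 members were tested and 0 were called, against 0.707% of all 11732 genes (edgeR), 0 had an unadjusted p under 0.05 and DESeq2 called 0. The groups did not overlap for 3 of the 15, Cpt1b, Scd1 and Acsl1, against 18.4% of all genes. The 19 not tested reached at most 14 counts and 2.05 CPM in a library. Scd1 stood at 1652, 1570 and 1637 CPM in wild type and 1486, 1553 and 1471 CPM in cre, with a log2 fold change of -0.11 ± 0.07 (adjusted p = 0.542, edgeR). Lpl stood at 3.51, 3.60 and 13.5 CPM in wild type and 8.66, 13.5 and 12.2 CPM in cre, a log2 fold change of 0.71 ± 0.49 (adjusted p = 0.605, edgeR), which became 1.69 and was called without wild-type B1b library 3. Ppargc1a stood at 6.89, 6.04 and 5.01 CPM in wild type and 3.17, 5.42 and 3.03 CPM in cre, -0.64 ± 0.36 (adjusted p = 0.467, edgeR). Of the 14 white adipocyte genes tested in B1b cells, 1 was called, against 0.707% of all genes. This was the fatty acid receptor gene Cd36, which rose from 36.2 ± 8.94 CPM (SD, n = 3) to 59.6 ± 6.55 CPM (n = 3), a log2 fold change of 0.71 ± 0.15 (adjusted p = 0.0338, edgeR). Of 9 macrophage markers tested in B1b cells, 7 were above 0, with a median of 0.22, 1 called higher and 4 at an unadjusted p under 0.05. Of all 11732 genes, 0.707% were called and 1563 had an unadjusted p under 0.05, and their median was -0.005. All 10 summed to 280 to 553 CPM in a B1b library, and their part in the value of Cd36 was not tested.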

How the data were processed

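RNA sequencing libraries of 10 aortas and 6 sorted B1b samples were analysed. The authors deposited 1 table of raw counts, whole numbers for each RefSeq transcript and sample, not normalized. Per the submitters' processing notes, the tools included CASAVA 1.8.2 and STAR 2.5.2b, with mm10 as the build. Which program counted reads, on which annotation and with what strand setting, is not given in the sources used here. Of 35745 transcripts, 35440 took a name from the RefSeq gene table, 188 from GENCODE and 117 none; the last held 0.24% to 2.5% of a library's counts. The transcript of highest total count was kept for each gene, since transcripts of 1 gene can share reads, leaving 24562 genes.

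Groups came from the genotype and cell type labels. Replicate numbers follow accession order and pair nothing. Aortas and B1b cells had separate fits in edgeR 4.0.16 (R 4.3.3), with TMM scaling, low counts removed by filterByExpr and a robust quasi-likelihood test, and wild-type aorta against wild-type B1b cells had a further fit. Benjamini-Hochberg adjustment ran over every gene in a fit, and calls needed an adjusted p under 0.05. Levels are CPM on TMM-scaled library sizes, log2 CPM had a prior count of 2, and CPM per kb used the transcript length. Ratios and correlations used exact tests or 100000 permutations. Counting error only is covered by the limit of 3 counts. Alternatives were DESeq2 1.42.0, limma-voom (limma 3.58.1) with and without sample quality weights, upper-quartile scaling, no filter on low counts, the lowest transcript per gene, and leaving out libraries. The fitting script was tested on simulated data.

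The members, the gene lists and the rule for named genes were chosen with earlier results of these data known. The rule gives each library's value for 15 members and for any member past the threshold, the others by range, the 8 genes nearest to Adipoq and to Ucp1, and from each further fat list the members past the threshold and the 4 of smallest p. Values by library for other members were added after their values were seen.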

Additional observations from a re-analysis of the deposited data

Results flagged for a closer look

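Among 68 groups of 5 aortas, 1 for each member and genotype, the highest library lay far from its own group in 22, by a gap over the whole range above Dixon's critical value of 0.71. That value flags about 1 in 20 groups of normally distributed values, and the distribution of these CPM was not tested. The members were chosen with earlier results of these data known, so the number of flags is a description. Of the 22, 21 were wild-type aorta 5, the second shallowest aorta at 1979777 counts, and members share that library, so they are not separate observations. Of the hormone genes it held Adipoq at 305 CPM (other 4, 55.2 to 106). Among the droplet genes, wild-type aorta 5 held Plin1 at 223 CPM (other 4, 17 to 56.1), Plin4 at 426 CPM (other 4, 274 to 311), Plin5 at 43.9 CPM (other 4, 6.24 to 14.8) and Cidea at 310 CPM (other 4, 32.6 to 60.1). Among the fuel uptake genes, wild-type aorta 5 held Fabp4 at 1982 CPM (other 4, 404 to 765), Acsl1 at 818 CPM (other 4, 205 to 286) and Slc2a4 at 133 CPM (other 4, 35.8 to 62.5). Among the lipolysis genes, wild-type aorta 5 held Lipe at 313 CPM (other 4, 64.6 to 104) and Pnpla2 at 707 CPM (other 4, 157 to 268). Among the lipid synthesis genes, wild-type aorta 5 held Elovl6 at 240 CPM (other 4, 29 to 41.5), Dgat2 at 226 CPM (other 4, 38.4 to 64.6), Gpd1 at 1616 CPM (other 4, 199 to 375), Scd1 at 7387 CPM (other 4, 1026 to 1786), Fasn at 4422 CPM (other 4, 419 to 874), Acaca at 289 CPM (other 4, 50.2 to 70.7) and Acly at 730 CPM (other 4, 126 to 175). Among the remaining members, wild-type aorta 5 held Elovl3 at 47.1 CPM (other 4, 2.16 to 9.38), Ppargc1a at 61.4 CPM (other 4, 14.6 to 25), Pparg at 85.2 CPM (other 4, 15.6 to 24.3) and Car3 at 1304 CPM (other 4, 222 to 438). In the cre group, cre aorta 3 held Elovl3 at 54.8 CPM, with the other 4 at 3.94 to 17 CPM.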

How the results depend on the processing

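The number of members called in aortas was 0, and became 2 with DESeq2 and 1 without the aortas under 2000000 counts. In B1b cells the number called was 0 and ran from 0 to 1 with a replicate left out. The number of aortic members at an unadjusted p under 0.05 was 5 (12.6% of all genes). It became 11 with limma-voom (13.8% of all genes) and 17 with limma-voom and quality weights (15.1% of all genes). Without the aortas under 2000000 counts it was 27 (16% of all genes). It was 13 without the 3 aortas of highest Ucp1 (10.3% of all genes), an alternative chosen after seeing the data. With 1 replicate left out it ran from 3 to 22. The 22 came without wild-type aorta 5, against 13.2% of all genes. The 3 without cre aorta 4 stood against 1511 of 13462 genes. The members' median log2 fold change of 0.57 became 1.40 without the shallow aortas. Some single log2 fold changes changed sign, though none was called. With a replicate left out, Dio2 ran from -0.116 to 0.15, Elovl3 from -0.46 to 1.58, Elovl6 from -0.10 to 1.46, Fasn from -0.046 to 1.54 and Acsl1 from -0.063 to 0.74. Dio2 was -0.012 without the shallow aortas, and Fasn was -0.081 and Acaca -0.037 without the 3 aortas of highest Ucp1. The correlation of Ucp1 and Cox7a1 was -0.036 on deviations from the genotype means, and that of Car3 and Acta1 was -0.0058 without the shallow aortas. The cause was not tested. Over the aortic fold changes of single members, 582 of 594 values under an alternative kept their sign and their side of the threshold. No member was called in the main fit, so keeping the side meant staying uncalled, and sizes still varied. The log2 fold change of Ucp1 was 0.11 without the 3 aortas of highest Ucp1 and 1.40 without the shallow aortas. No paired analysis was possible because the replicate numbers follow accession order and do not tie samples across genotypes. Depth limits Lep in aortas and most members in B1b cells.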
